A study of Homo sapiens with 3 samples.

Results

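The actin-binding contractile genes described here are 10 genes named by symbol (TAGLN, TAGLN2, ACTA2, CNN1, CNN2, CALD1, TPM1, TPM2, MYL9 and ACTN1) out of 46427 in the deposited table. They were chosen by name with their measured levels in these same libraries known, so their values are a description and none of them carries a test. RNA came from MG-OKS, a human osteosarcoma line with features of cancer stem cells whose cell type is labelled mesenchymal. The tested cells received an siRNA against SPRR1A, whose small proline-rich product is known from the cornified envelope of skin, with a lipid transfection reagent. The first control received a scrambled siRNA with the same reagent, and the second control was MG-OKS that was not transfected, labelled WT. Each of the 3 groups was 1 library, so no difference below has a replicate check, and culture-to-culture variation cannot be told apart from the treatment. Whether the line is 1 clone is not given in the sources used here.

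Contractile actin filaments are built from actin subunits and dressed with binding proteins. Tropomyosins lie along the filament and set which myosins reach it, caldesmon (CALD1) and the calponins (CNN1, CNN2) bind actin and restrain myosin activity, transgelins (TAGLN, TAGLN2) are small calponin-related actin crosslinkers, alpha-actinin 1 (ACTN1) ties filaments together at adhesions, and MYL9 is a regulatory light chain of myosin. TAGLN, ACTA2 and CNN1 are classical smooth muscle and myofibroblast markers, whereas TAGLN2, CNN2, ACTN1 and the non-muscle tropomyosin and caldesmon forms are used by most adherent cells. Many of these genes are controlled by serum response factor (SRF), which binds the CArG box in promoters together with cofactors that are held back by free actin.

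The libraries held 34453554 counts for the SPRR1A siRNA, 36533542 for the scrambled siRNA and 40050593 for untransfected cells. SPRR1A had 0 counts in all 3 libraries, where 3 counts would be 0.0880, 0.0826 and 0.0737 CPM in that order, so the targeted transcript could not check the labels. Of 6 osteoblast markers, SP7 and IBSP were at 0 in all 3 libraries, RUNX2 had 571 counts with the SPRR1A siRNA, 374 with the scrambled siRNA and 865 without transfection, and ALPL, BGLAP and SPP1 had between 6 and 86. The mesenchymal label was checked against 6 fibroblast and mesenchymal markers, none of which was at 0 in any library, but keratins KRT14 and KRT6A were also abundant, at 1934 and 1761 TPM with the SPRR1A siRNA, 1439 and 1210 TPM with the scrambled siRNA and 3739 and 2803 TPM without transfection. Other epithelial markers were low, with KRT5 at 2.73, 1.36 and 5.51 TPM in that order and CDH1 and EPCAM at no more than 14 counts.

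The CArG box was searched because it is the sequence through which SRF acts. It is shown here for the members that hold it and, as examples of related genes, for ACTG1 and EGR1. It was taken as CC, then 6 letters that are each A or T, then GG, a pattern that reads alike on both strands. RefSeq windows in GRCh38.p14, each from 250 bases before to 50 after a transcript start, were found for 8 of the 10 members (18 windows), while TAGLN and MYL9 are named only. The box stood in 2 of these 8 members, CNN2 and ACTN1, against 1.60% of 27305 genes with a window, and in 16 of 84 other listed actin cytoskeleton genes with one. The other listed genes include SRF regulators and targets chosen as such, so their share is partly set by that choice and no enrichment is read from it. Of those named below, ACTA1, ACTC1, ACTG2, MYLK, SMTN, SRF, TGFB1I1 and TPM4 also held the box, and theirs are not printed. Each line below gives 40 bases, 5′ to 3′ on the gene's own strand, with the box or its near match in capitals. CNN2 is at chr19:1026504-1026543 (plus strand, 89 bases before the start), ACTN1 at chr14:68977713-68977752 (minus strand, 171 bases before the start, 1 of 4 windows), ACTG1 at chr17:81512869-81512908 (minus, 94 before) and EGR1 at chr5:138465381-138465420 (plus, 83 before). ACTA2 at chr10:88952870-88952909 (minus, 121 before, 1 of 2 windows) and CALD1 at chr7:134711458-134711497 (plus, 26 before, 1 of 4 windows) held near matches with 1 G or C inside the box. The same ACTA2 window held a second near match, 71 bases before the start, that is not printed. Likewise, the EGR1 window held a second exact box, 105 bases before the start, that is not printed. Boxes with at most 1 such letter, exact boxes included, occur in 8.13% of all windows and in 9.88% of the 27305 genes.
CNN2: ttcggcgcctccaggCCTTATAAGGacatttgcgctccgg
ACTN1: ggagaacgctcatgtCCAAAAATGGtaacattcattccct
ACTG1: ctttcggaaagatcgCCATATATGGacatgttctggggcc
EGR1: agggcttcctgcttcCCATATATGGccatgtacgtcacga
ACTA2, near match: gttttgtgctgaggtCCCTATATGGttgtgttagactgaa
CALD1, near match: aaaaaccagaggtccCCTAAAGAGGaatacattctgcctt
These matches describe letters in a window and are not shown to be bound, and the absence of a match says nothing of SRF.

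Per length, the 10 genes differed widely in level, and the classical smooth muscle markers TAGLN, ACTA2 and CNN1 were low in each library. Gene-level values do not tell the muscle and non-muscle forms of the tropomyosins and CALD1 apart. In the deposited TPM (a relative level corrected for transcript length), TPM2 and TAGLN2 were the highest of the 10 genes in each library. ACTN1, TPM1, CNN2 and CALD1 lay between 17.2 and 135.8 TPM, ACTA2 between 1.95 and 3.47 TPM, and CNN1, TAGLN and MYL9 below 1 TPM throughout. Summed over the 10 genes, the level was 2750 TPM with the SPRR1A siRNA, 2475 TPM with the scrambled siRNA and 2569 TPM in untransfected cells. TPM2 made up 62.5% of that sum with the SPRR1A siRNA, 59.7% with the scrambled siRNA and 54.3% without transfection, and TAGLN2 made up 25.9%, 29.1% and 36.5% in that order.

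**Figure D1:**
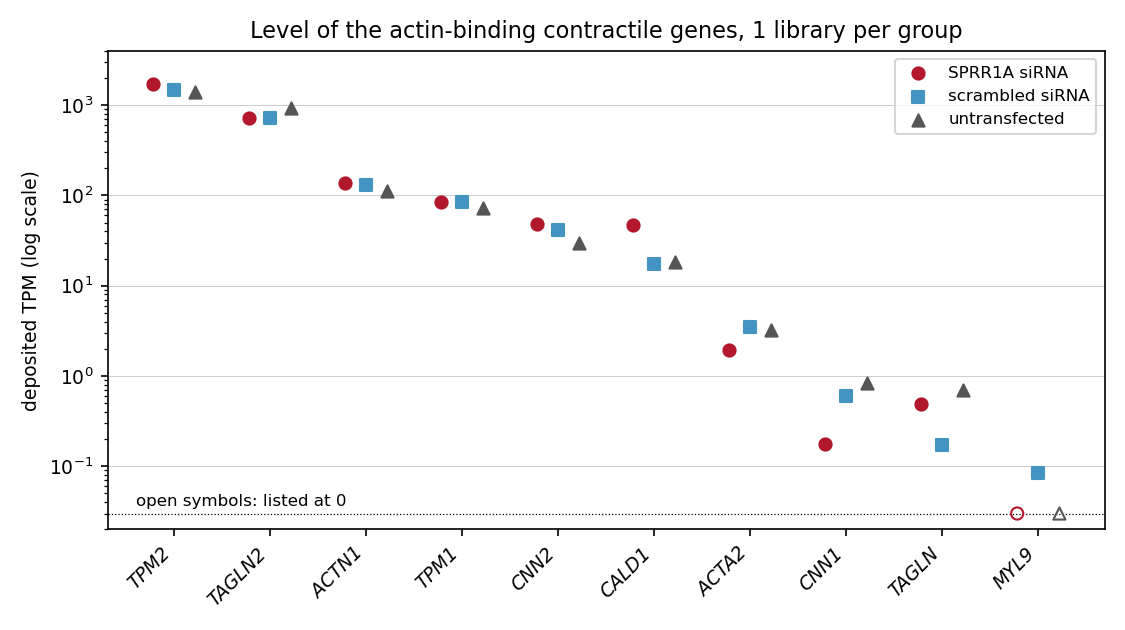
Deposited TPM on a log axis for each of the 10 genes in the SPRR1A siRNA, scrambled siRNA and untransfected libraries, 1 point per library, with values of 0 drawn open on the dotted line. CALD1 stands higher in the SPRR1A siRNA library (47.1 TPM) than in the scrambled (17.2) and untransfected (18.5) libraries. CNN1 and ACTA2 are lowest in the SPRR1A siRNA library, while TAGLN is lowest in the scrambled library.

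Folds between libraries were taken on CPM, counts relative to library size after scaling by TMM factors, among the 14233 genes that reached 1 CPM in at least 1 library, and 8 of the 10 members did so. CNN1 and MYL9 stayed below that level, and TAGLN passed only through the untransfected library. Calls, higher or lower, needed a log2 ratio of 1 or more in either direction together with a 95% counting interval of the fold that left out 1, a rule that compares libraries and not conditions. Against the scrambled siRNA, 2 of the 8 members were higher (CALD1 and TAGLN), where 3.7% of all kept genes were, and none was lower, where 7.26% were. Against untransfected cells, CALD1 alone was higher, where 2.35% of kept genes were, and no member was lower, where 8.36% were. Of scrambled against untransfected cells, TAGLN was the 1 member called, as lower, where 3.46% of kept genes were lower and 1.52% higher. Since TAGLN entered only through the untransfected library, where it is high, nothing is read from that count. CALD1 was thus the only member called against both controls with the same sign, which held for 1.03% of kept genes in the higher and 4.64% in the lower direction. The 2 comparisons of the SPRR1A siRNA library share that library, so their calls are not independent.

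The members' median log2 ratio was 0.19 against the scrambled siRNA, where the median of all kept genes was -0.00091, and 0.33 against untransfected cells, where it was -0.0041. Between scrambled and untransfected cells the members' median was 0.15 beside 0.0032 for all kept genes. In CPM, 5 of the 8 kept members (CNN2, CALD1, TPM1, TPM2 and ACTN1) were ordered with the SPRR1A siRNA highest and untransfected cells lowest, an order found in 19.8% of kept genes. Counting this order was not planned, and other orders were not counted. The members were chosen with their levels known, so nothing is read from this share. Apart from CALD1 with the SPRR1A siRNA, the steps in this order were all under 2-fold. The place of CALD1 rests on controls that did not differ beyond counting error, and their order turns with scaling by total counts (log2 ratio -0.0091 for scrambled over untransfected) and in TPM.

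CALD1 (NCBI Gene 800, chromosome 7, 134711499 to 134970729 in GRCh38), caldesmon, rose with the SPRR1A siRNA relative to both controls. It had 3384 counts with the SPRR1A siRNA, 1327 with the scrambled siRNA and 1464 in untransfected cells, or 99.3, 36.5 and 35.9 CPM. The SPRR1A siRNA library stands alone, and the controls nearly coincide. The fold was 2.72 over the scrambled siRNA (95% counting interval 2.55 to 2.90) and 2.76 over untransfected cells (2.597 to 2.94), whereas scrambled over untransfected was 1.02 (0.943 to 1.10). Of all kept genes, 4.29% moved at least as far as CALD1, in either direction, against the scrambled siRNA and 4.13% against untransfected cells. CALD1 overlapped no other gene in the GENCODE 29 annotation. That annotation starts CALD1 at 134744252, so the bases from 134711499 up to there were not searched for overlap.

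The gene-level counts pool the CALD1 forms, among them the long form of smooth muscle and the short form of other cells. The transcript length that the authors' counts and FPKM imply for CALD1 was 4866 bases with the SPRR1A siRNA, 4914 with the scrambled siRNA and 4642 without transfection. Relative to the median shift over 11435 genes with at least 100 counts in each library, this was a difference of 0.27% against the scrambled siRNA and 4.80% against untransfected cells, and 60.7% and 12.5% of those genes shifted at least as much. Per TPM1, CALD1 stood at 0.557 in TPM with the SPRR1A siRNA, 0.205 with the scrambled siRNA and 0.257 without transfection.

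TAGLN (Gene 6876, chromosome 11, 117199294 to 117207465), transgelin or SM22-alpha, had 34 counts with the SPRR1A siRNA, 13 with the scrambled siRNA and 56 in untransfected cells, or 0.998, 0.358 and 1.37 CPM. The scrambled library was the low one, and the SPRR1A siRNA library lay between the controls. The fold was 2.79 over the scrambled siRNA (1.43 to 5.75), while scrambled cells were 3.84-fold lower than untransfected cells (2.07 to 7.66). Against untransfected cells the SPRR1A siRNA gave a log2 ratio of -0.44, with a counting interval of 0.459 to 1.13 for the fold. The transcript length implied by the counts and FPKM of TAGLN was between 4648 and 4786 bases, against 2166 for its longest GENCODE 29 transcript, so its TPM may be set too low. The call rests on 34 and 13 counts and is lost with a filter of 5 CPM or on log2(TPM + 1). TAGLN also overlaps PCSK7 on the opposite strand, and with the strand setting of the counting not given in the sources used here, reads of the pair cannot be told apart. PCSK7 had 1269 counts with the SPRR1A siRNA, 1372 with the scrambled siRNA and 1379 without transfection.

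TAGLN2 (Gene 8407, chromosome 1, 159918111 to 159925507), the transgelin of non-muscle cells, was far above its paralogue TAGLN in each library. It stood at 456 CPM with the SPRR1A siRNA, 466 CPM with the scrambled siRNA and 580 CPM in untransfected cells. Both transfected libraries lay together below the untransfected one. The SPRR1A siRNA was 1.27-fold lower than untransfected cells (1.25 to 1.30) and the scrambled siRNA 1.25-fold lower (1.22 to 1.27), neither past the 2-fold threshold, and the log2 ratio between the transfected libraries was -0.03.

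The calponins split by form. CNN1 (Gene 1264, chromosome 19, 11538851 to 11550323), the smooth muscle calponin, had 6 counts with the SPRR1A siRNA, 21 with the scrambled siRNA and 31 in untransfected cells, or 0.176, 0.578 and 0.761 CPM. The SPRR1A siRNA library was the lowest, 3.28-fold below the scrambled siRNA (1.28 to 9.95) and 4.32-fold below untransfected cells (1.78 to 12.7), but the gene was under the expression filter and was not called. CNN2 (Gene 1265, chromosome 19, 1026608 to 1039065), the broadly used calponin whose promoter holds the CArG box printed above, had 1662, 1498 and 1187 counts with the SPRR1A siRNA, with the scrambled siRNA and without transfection. Its levels were 48.8, 41.3 and 29.1 CPM in that order. CNN2 was the member nearest to a call against untransfected cells, with a fold of 1.67 (1.55 to 1.80), and stood at 1.18 over the scrambled siRNA (1.10 to 1.27).

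ACTA2 (Gene 59, chromosome 10, 88935074 to 88991337), smooth muscle actin and the usual myofibroblast marker, had 55 counts with the SPRR1A siRNA, 105 with the scrambled siRNA and 105 in untransfected cells. Its levels of 1.61, 2.89 and 2.58 CPM place the SPRR1A siRNA library below both controls. It was 1.79-fold below the scrambled siRNA (1.28 to 2.53) and 1.60-fold below untransfected cells (1.14 to 2.26), short of the 2-fold threshold in both. ACTA2 overlaps STAMBPL1, FAS and ACTA2-AS1 on the opposite strand, so its few counts could include theirs.

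ACTA2 was a trace of the actin RNA in each library. Of the summed TPM of 6 actin genes it took 0.0269% with the SPRR1A siRNA, 0.0302% with the scrambled siRNA and 0.0325% without transfection. The cytoplasmic actins ACTB and ACTG1 made up nearly all of the rest. ACTB, beta-actin, stood at 3930 TPM with the SPRR1A siRNA, 8228 TPM with the scrambled siRNA and 6850 TPM in untransfected cells. It fell with the SPRR1A siRNA relative to the scrambled siRNA, by 2.11-fold (2.096 to 2.13), and was 1.69-fold below untransfected cells (1.67 to 1.70), where it was not called. ACTG1, gamma-actin, whose promoter holds the CArG box printed above, stood at 3298, 3237 and 3084 TPM with the SPRR1A siRNA, with the scrambled siRNA and without transfection, with log2 ratios of 0.02 to the scrambled siRNA and 0.14 to untransfected cells. ACTB accordingly made up 54.4% of actin TPM with the SPRR1A siRNA, 71.7% with the scrambled siRNA and 68.9% in untransfected cells, and the sum over the 6 genes was 7230, 11469 and 9937 TPM in that order. The actin genes are near-identical in their coding parts and have many pseudogene copies, so how the counting split their reads could move these shares. The muscle actins were at or near 0, with ACTA1 at 12 counts, ACTG2 at 3 and ACTC1 at 0 with the SPRR1A siRNA and all 3 genes at 0 in both controls.

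Of the tropomyosins, TPM2 (Gene 7169, chromosome 9, 35681993 to 35690056) was the most abundant. It stood at 872 CPM with the SPRR1A siRNA, 754 CPM with the scrambled siRNA and 684 CPM in untransfected cells. The fold was 1.16 over the scrambled siRNA (1.14 to 1.18) and 1.28 over untransfected cells (1.25 to 1.30). These differences exceed counting error but are smaller than those of 67.2% and 48.6% of kept genes. TPM1 (Gene 7168, chromosome 15, 63042747 to 63071915), whose forms include the long tropomyosins of stress fibres and muscle, stood at 69.1 CPM with the SPRR1A siRNA, 63.8 CPM with the scrambled siRNA and 54.6 CPM in untransfected cells. Its fold was 1.08 over the scrambled siRNA (1.02 to 1.15) and 1.27 over untransfected cells (1.19 to 1.34). In TPM the pair of transfected libraries was closer, at 84.6 with the SPRR1A siRNA and 84.3 with the scrambled siRNA. After the median shift of all genes, the implied transcript length of TPM1 with the SPRR1A siRNA was 8.73% longer than with the scrambled siRNA. It was 3.87% longer than without transfection. Shifts at least as large were reached by 7.25% and 15.2% of genes.

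The makeup of the tropomyosin family was similar in the 3 libraries. TPM2 took 49.1% of the family's summed TPM with the SPRR1A siRNA, 48.1% with the scrambled siRNA and 45.7% in untransfected cells, and TPM4, a short non-muscle form, took 37.9%, 38.5% and 41.3% in that order. The family sum was 3502 TPM with the SPRR1A siRNA, 3072 TPM with the scrambled siRNA and 3052 TPM in untransfected cells. For TPM3 and TPM4 the log2 ratios were 0.18 and 0.20 against the scrambled siRNA and 0.25 and 0.15 against untransfected cells, so none of the 4 tropomyosins was called.

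Within the calponins and transgelins, TAGLN2 took 74.3% of the summed TPM with the SPRR1A siRNA, 79.5% with the scrambled siRNA and 84.5% in untransfected cells. CNN3, the acidic calponin, took 20.5%, 15.9% and 12.6%, and CNN2 took 5.09%, 4.51% and 2.71% in the same order. CNN3 stood at 182 CPM with the SPRR1A siRNA, 135 CPM with the scrambled siRNA and 126 CPM in untransfected cells, with folds of 1.36 over the scrambled siRNA (1.31 to 1.41) and 1.45 over untransfected cells (1.40 to 1.51). TAGLN3, the neuronal transgelin, had 0 counts in both transfected libraries and 7 in untransfected cells.

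ACTN1 (Gene 87, chromosome 14, 68874128 to 68979302), whose promoter holds a CArG box in 1 of 4 windows, stood at 249 CPM with the SPRR1A siRNA, 222 CPM with the scrambled siRNA and 199 CPM in untransfected cells. The fold was 1.12 over the scrambled siRNA (1.09 to 1.16) and 1.25 over untransfected cells (1.21 to 1.29). Its paralogue ACTN4 was higher per length, at 760 TPM with the SPRR1A siRNA, 719 TPM with the scrambled siRNA and 681 TPM in untransfected cells. ACTN1 had a share of 15.2%, 15.2% and 14.1% of alpha-actinin TPM in that order, and the muscle forms ACTN2 and ACTN3 were at 0 and at no more than 11 counts.

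MYL9 (Gene 10398, chromosome 20, 36541519 to 36551447), the regulatory light chain of smooth muscle myosin, had 0 counts with the SPRR1A siRNA, 4 with the scrambled siRNA and 0 in untransfected cells. These counts are too few for a fold, and a difference was not detectable at this depth. Regulatory light chain RNA was nearly all MYL12A and MYL12B, the non-muscle counterparts. MYL12A stood at 767 TPM with the SPRR1A siRNA, 441 TPM with the scrambled siRNA and 420 TPM in untransfected cells, and its CPM gave folds of 1.73 over the scrambled siRNA (1.68 to 1.78) and 1.89 over untransfected cells (1.83 to 1.94). That was just short of the threshold in the second comparison. MYL12B stood at 624, 562 and 481 TPM in the same order, and MYL6, an essential light chain, at 1254, 1143 and 1135 TPM. MYL12A thereby took 55.2% of regulatory light chain TPM with the SPRR1A siRNA, 43.9% with the scrambled siRNA and 46.6% in untransfected cells. MYL12A and MYL12B are close paralogues, so reads could be split between them.

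**Figure D2:**
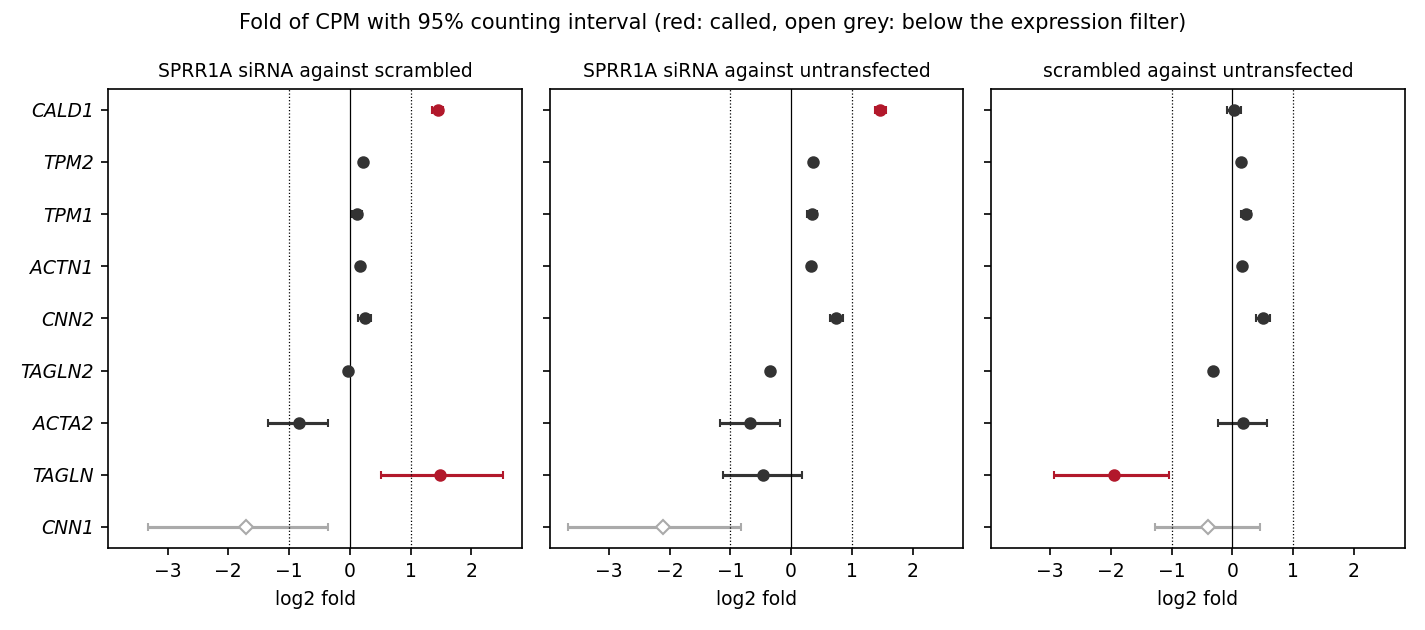
Log2 fold of CPM with its 95% counting interval for 9 members in the 3 library comparisons, called genes in red, genes under the expression filter as open grey diamonds, dotted lines at the 2-fold threshold. MYL9 is not drawn because it had 0 counts in 2 libraries. CALD1 lies near 2.7-fold over both controls, and the abundant members lie within 2-fold. Of the low smooth muscle genes, ACTA2 and CNN1 lie left of 0 with wide intervals in both comparisons of the SPRR1A siRNA. TAGLN lies right of 0 against the scrambled siRNA, and left of 0 against untransfected cells with an interval that spans 0.

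**Figure D3:**
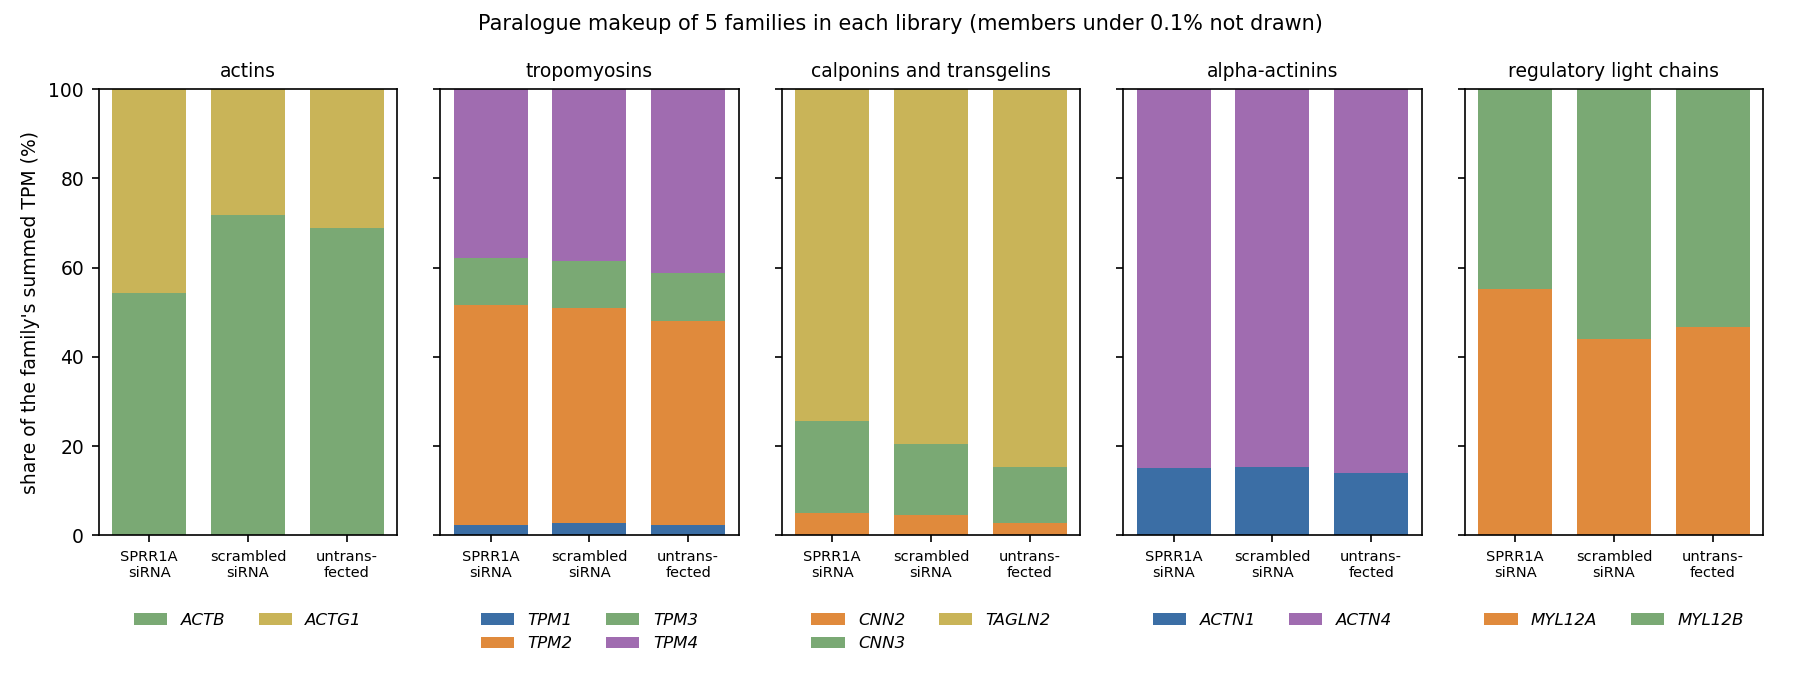
Share of each family's summed TPM (%) taken by its genes in the SPRR1A siRNA, scrambled siRNA and untransfected libraries, left to right, 1 library per bar. The ACTB share is 54.4% with the SPRR1A siRNA against 71.7% and 68.9% in the controls, while tropomyosin and alpha-actinin shares differ by less than 5 percentage points.

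The wider actin cytoskeleton was read from 5 lists of 94 genes in all, of which 78 were kept. Against the scrambled siRNA, 2 of the 78 were higher (MYH11 and TLN1) and 7 lower (ACTB, CSRP1, EGR1, LIMK1, MYLK, TMOD1 and VASP), where 3.7% and 7.26% of all kept genes were. Against untransfected cells, 1 was higher (CCN1) and 7 lower (CSRP1, EGR1, GSN, MYLK, TGFB1I1, TMOD1 and VASP), where 2.35% and 8.36% of all kept genes were. The scrambled siRNA against untransfected cells gave 2 higher (CCN1 and LIMK1) and 2 lower (MYH11 and TLN1), where 1.52% and 3.46% were. The list median was -0.03 against the scrambled siRNA and -0.0043 against untransfected cells, where the medians of all kept genes were -0.00091 and -0.0041. No listed gene was higher than both controls, and 5 of 78 were lower than both, where 1.03% and 4.64% of all kept genes were. These counts are near the background and are no result about the list.

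Counts are given for 4 of the lists. Of these, 1 of 9 kept paralogues of members was lower than the scrambled siRNA (ACTB) and none was called against untransfected cells. Of 8 kept smooth muscle contractile genes, 1 was higher and 2 lower than the scrambled siRNA, and 2 were lower than untransfected cells. Of 16 kept SRF and MRTF regulators and targets, 2 were lower than the scrambled siRNA, and 1 was higher and 2 lower than untransfected cells. Of 35 kept genes of crosslinking, filament turnover and focal adhesion, 1 was higher and 2 lower than the scrambled siRNA, and 3 were lower than untransfected cells. Of all kept genes, 3.7% were higher and 7.26% lower against the scrambled siRNA. Against untransfected cells, 2.35% were higher and 8.36% lower. As shares of their lists, some of these counts lie above those values and others below. Each count is of at most 3 genes, so nothing is read from these shares, and some genes stand on more than 1 list.

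The 5 genes lower than both controls act at different points. MYLK, the kinase that phosphorylates myosin regulatory light chains, had 2713 counts with the SPRR1A siRNA, 6152 with the scrambled siRNA and 7586 in untransfected cells. It fell 2.13-fold below the scrambled siRNA (2.03 to 2.23) and 2.34-fold below untransfected cells (2.24 to 2.45). The implied transcript length of MYLK was also 36.6% longer than in the scrambled library and 16.4% longer than in the untransfected library, shifts reached by 0.726% and 2.51% of genes, and per length it stood at 18.2, 52.4 and 51.2 TPM with the SPRR1A siRNA, with the scrambled siRNA and without transfection.

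CSRP1, a LIM protein that binds alpha-actinin and zyxin, had 1156 counts with the SPRR1A siRNA, 2893 with the scrambled siRNA and 3633 in untransfected cells. It fell 2.35-fold below the scrambled siRNA (2.19 to 2.52) and 2.63-fold below untransfected cells (2.46 to 2.81). VASP, which promotes filament elongation, had 2296, 4996 and 5948 counts with the SPRR1A siRNA, with the scrambled siRNA and without transfection, and was 2.04-fold below the scrambled siRNA (1.94 to 2.15) and 2.17-fold below untransfected cells (2.07 to 2.28). The counting interval of VASP against the scrambled siRNA includes 2, so it sits at the threshold. TMOD1, which caps pointed filament ends, passed the filter only through the controls, where it is high, so its place among the 5 is partly set by the filter. It was low throughout, with 11 counts with the SPRR1A siRNA, 39 with the scrambled siRNA and 57 in untransfected cells, 3.33-fold (1.67 to 7.20) below the scrambled siRNA and 4.34-fold (2.25 to 9.17) below untransfected cells. EGR1, an immediate early gene and SRF target, had 41 counts with the SPRR1A siRNA, 210 with the scrambled siRNA and 284 in untransfected cells. It fell 4.81-fold below the scrambled siRNA (3.43 to 6.89) and 5.80-fold below untransfected cells (4.17 to 8.25). The EGR1 promoter holds the CArG box printed above and another, and the MYLK window holds a CArG box too.

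SRF itself had 1173 counts with the SPRR1A siRNA, 1269 with the scrambled siRNA and 1349 in untransfected cells, and was called in no comparison. The talin gene TLN1, whose product links integrins to actin, separated the controls and not the SPRR1A siRNA from both. It had 29870 counts with the SPRR1A siRNA, 11201 with the scrambled siRNA and 35940 in untransfected cells.

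**Figure D4:**
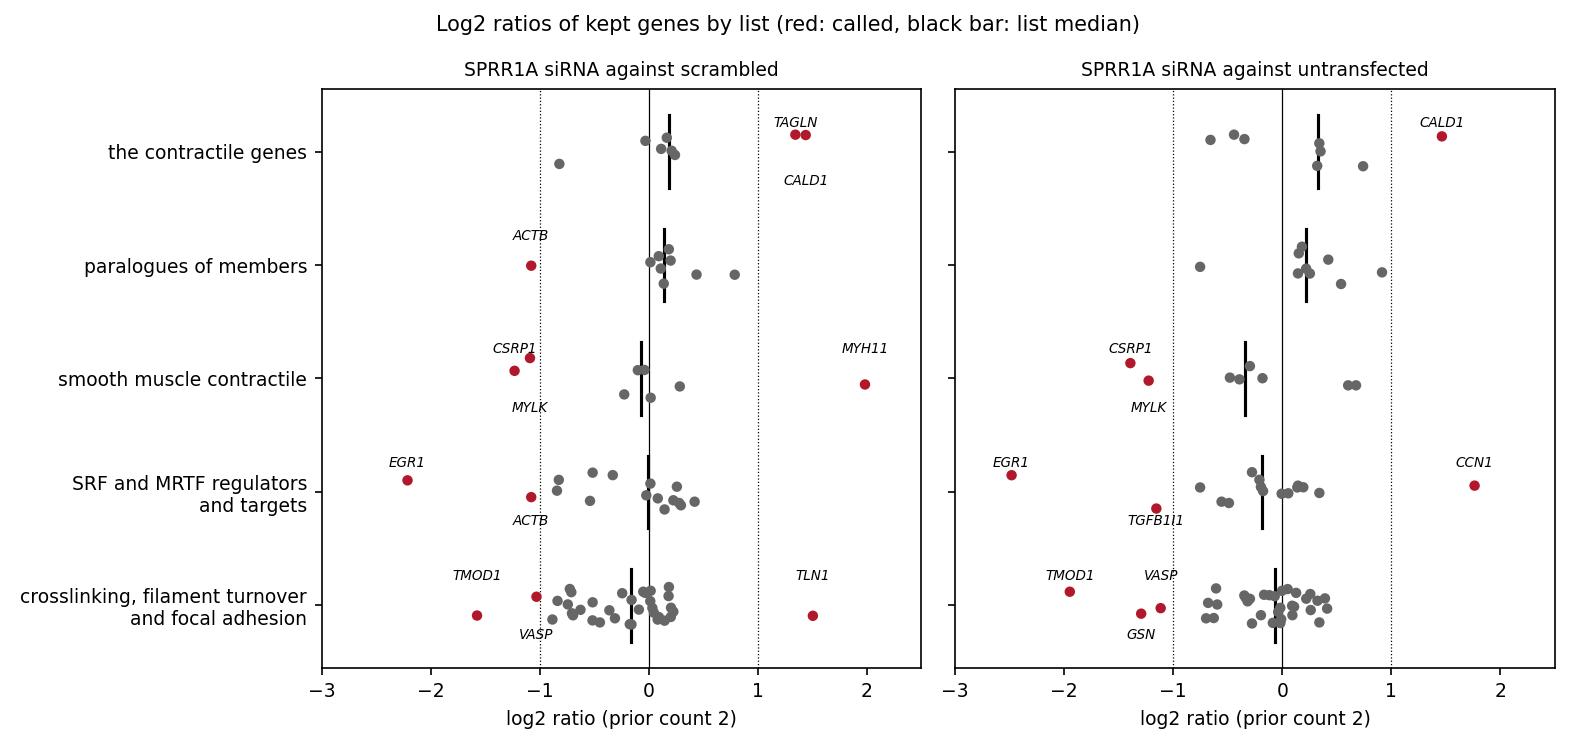
Log2 ratios of kept genes for the contractile genes and 4 of the other actin cytoskeleton lists, SPRR1A siRNA against scrambled siRNA on the left and against untransfected cells on the right, 1 point per gene with called genes in red and named, black bars at the list medians. The medians lie between -0.35 and 0.33, and CALD1 is the only red point right of 1 in both panels.

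GTCACCC, a 7-base sequence picked with earlier results of these data known, was searched in 3′ UTRs of GENCODE 29 transcripts on the transcript strand. It stood in 29.6% of 560 searched genes that were lower than both controls, a set that includes genes it was picked from, in 13.1% of all 12091 kept genes searched and in 1 of the 10 members, MYL9, in 3 copies. Of the 5 listed genes lower than both controls it stood in VASP alone. MYL9 was too low in each library for its level to be read against this match.

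Markers of other cell types were summed in TPM beside these results. The 6 fibroblast and mesenchymal markers summed to 2031 TPM with the SPRR1A siRNA, 4268 TPM with the scrambled siRNA and 4607 TPM in untransfected cells. VIM and PDGFRB of them were lower than both controls, where 4.64% of kept genes were. TP63 of the keratinocyte and epithelial markers and SPP1 of the osteoblast markers were lower than both controls too. The 6 keratinocyte and epithelial markers summed to 3698, 2652 and 6549 TPM with the SPRR1A siRNA, with the scrambled siRNA and without transfection, nearly all of it KRT14 and KRT6A. KRT5, KRT14 and KRT6A were called lower in scrambled than in untransfected cells, where 3.46% of kept genes were. The 6 smooth muscle markers summed to 46.5, 38.1 and 32.5 TPM in the same order, nearly all of it SMTN. The other smooth muscle markers went different ways. MYH11, smooth muscle myosin heavy chain, had 80 counts with the SPRR1A siRNA, 20 with the scrambled siRNA and 59 without transfection, 4.26-fold higher than with the scrambled siRNA (2.59 to 7.35) and not called against untransfected cells. ACTG2 had 3, 0 and 0 counts in that order, MYOCD 0, 5 and 9, DES 21, 29 and 34, and LMOD1 was at 0 in all 3 libraries. The 8 skeletal and cardiac markers summed to 11.8, 9.71 and 15.7 TPM with MYOD1, MYOG, TNNT2 and CKM at 0, the 6 osteoblast markers to 8.46, 9.67 and 15.1 TPM, and the 6 endothelial and blood markers to 0.276, 0.432 and 0.593 TPM with CDH5 and HBB at 0. The part of these shifts in the CALD1, ACTA2 and CNN1 values was not tested, and in bulk RNA fewer cells of a type and less RNA per cell cannot be told apart.

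The genes whose pattern was most like that of CALD1 were sought among 9067 genes with at least 10 CPM in every library, by the Euclidean distance over the log2 ratios of the SPRR1A siRNA and the scrambled siRNA to untransfected cells, so over 3 libraries. CCDC142, a coiled-coil protein gene, was nearest at a distance of 0.0961, with 986 counts with the SPRR1A siRNA, 411 with the scrambled siRNA and 455 without transfection. The next were RNA45SN1 and RNA45SN2, copies of the ribosomal RNA precursor, at distances of 0.181 and 0.217. RNA45SN1 had 30164 counts with the SPRR1A siRNA, 10381 with the scrambled siRNA and 12987 in untransfected cells. These copies are near-identical, so their split is uncertain. All 12 ribosomal RNA rows together took 1.12% of counts with the SPRR1A siRNA, 0.878% with the scrambled siRNA and 1.02% in untransfected cells. The part of ribosomal RNA carry-over in the CALD1 difference was not tested.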

How the data were processed

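Poly(A) RNA from MG-OKS cells was sequenced as stranded mRNA libraries, per the labels' protocols, with 1 library in each of 3 groups. The authors deposited whole-number read counts per gene, with FPKM and TPM of the same genes. Reads were aligned with HISAT2 2.1.0 to GRCh38 (hg38), per the submitters' processing notes. The counting tool, annotation release and strand setting are not given in the sources used here. Groups were taken from titles and genotype labels, and 0 columns of sample values were left out.

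Members and lists were chosen with earlier results of these data known. Of 46427 genes, 14233 with at least 1 CPM in 1 library were kept. TMM factors (edgeR 4.0.16, R 4.3.3) were computed over all genes, log2 ratios used a prior count of 2, and a call needed at least 2-fold and an exact conditional binomial 95% counting interval without 1. Folds and intervals are from scaled counts, and levels between genes are compared in the deposited TPM. The scripts (Python 3.11.15, scipy 1.17.1) were tested on simulated data. With 1 library per group no dispersion and no p-value was computed. Total counts were 34453554, 36533542 and 40050593. Reads carry no molecular identifiers, so intervals and floors of 3 counts cover counting error only. Implied length is count divided by FPKM and by library total.

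Named genes were all 10 members, SPRR1A, the members' paralogues, listed genes with the same call against both controls, and the 3 genes nearest in pattern to each member so called. TLN1, SRF, PCSK7, the marker genes and the other list genes called in a single comparison were named after their values were seen. Alternatives were other scalings (DESeq2 1.42.0 size factors, total counts, totals without the 100 most abundant genes), no filter or 5 CPM, 1.5-fold or 3-fold, and log2(TPM + 1). Promoter windows, gene positions and names are from RefSeq (GRCh38.p14), and 3′ UTRs and overlaps from GENCODE 29. No protein sequence was used here, and the separate result of 1 gene list is not reported here.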

Additional observations from a re-analysis of the deposited data

How the results depend on the processing

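No paired analysis was possible because each group is 1 library. No called value changed sign, and the 3 other scalings left the members called as they were. The log2 ratio of CALD1 between scrambled and untransfected cells, not called at 0.02, turned to -0.0091 with total counts, -0.0039 with totals without the 100 most abundant genes and -0.09 on log2(TPM + 1). Genes called numbered 1560 for the SPRR1A siRNA against the scrambled siRNA, 1524 against untransfected cells and 709 for scrambled against untransfected cells. Without a filter these were 3144, 3043 and 2199, with a filter of 5 CPM 879, 825 and 317, at 1.5-fold 3860, 3836 and 2112, at 3-fold 456, 478 and 190, and on log2(TPM + 1) 812, 840 and 298.

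Members called against the scrambled siRNA numbered 2, and 3 without a filter (CNN1 lower is added), 3 at 1.5-fold (ACTA2 lower is added), 1 with 5 CPM, 1 on log2(TPM + 1) and 0 at 3-fold. Against untransfected cells they numbered 1, and 2 without a filter (CNN1 lower is added), 3 at 1.5-fold (CNN2 higher and ACTA2 lower are added) and 0 at 3-fold. Between the controls they numbered 1, and 0 with 5 CPM or on log2(TPM + 1). CALD1 was called against both controls under each of these settings but the 3-fold threshold.

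The other listed actin cytoskeleton genes called against the scrambled siRNA numbered 9, and 23 at 1.5-fold and 2 at 3-fold. Against untransfected cells they numbered 8, and 17 at 1.5-fold and 3 at 3-fold. Between the controls they numbered 4, and 0 at 3-fold and 2 on log2(TPM + 1). These counts move with the threshold or filter by construction, and the cause of the moves on log2(TPM + 1) was not tested. Of the members' log2 ratios under these settings, 167 stayed within the counting interval of the value reported and 19 moved beyond it. The filter and fold-threshold settings leave a log2 ratio unchanged by construction, and their entries are among the 167. Only the other scalings and log2(TPM + 1) could move one.

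With 1 library per group, counting intervals are the only error available, and genes with few counts (TAGLN, CNN1, MYL9, TMOD1) are limited by depth.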
